A study of Mus musculus with 12 samples.

Results

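Expression of 9 genes of gluconeogenesis and the hepatic insulin response was examined in liver RNA-seq from a mouse study of non-alcoholic steatohepatitis (NASH). The genes are Pck1, G6pc, Fbp1, Slc2a2, Ppargc1a, Foxo1, Irs1, Irs2 and Igfbp1. They were taken by symbol and matched through GENCODE M21 to the Ensembl identifiers of the count files. No expression value entered the rule, but the genes were chosen with earlier results of these data known. They are 9 of the 47729 genes in the files, and all 9 were among the 16823 genes that passed the filter on low counts. Livers came from 12 C57BL/6 mice, 4 per group. Healthy mice (Naive_vehicle) were wild type and received vehicle. STAM mice were males of the same strain, and the paper describes no genetic change in them. They were made diabetic with streptozotocin, a toxin of the pancreatic beta cell, at 2 days of age. Mice ate a normal diet until week 4, when STAM mice were switched to a high-fat diet. From week 6 to week 9 they were dosed daily by mouth with vehicle (STAM-vehicle) or with I-BET151 at 10 mg/kg (STAM-I-BET151), a small molecule that blocks the bromodomains of the BET chromatin proteins. The vehicle was methylcellulose, whereas I-BET151 was suspended in hydroxypropyl methylcellulose with Tween 80, so the compound and its medium cannot be told apart. Streptozotocin and the diet were given together and cannot be told apart either. Feeding state and hour of tissue collection, on which several of these genes depend, are not given in the sources used here.

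Gluconeogenesis makes glucose from lactate, glycerol and amino acids, and in the liver it keeps blood glucose up during a fast. Glucagon, acting through cAMP and the factor CREB, and the factor FOXO1 both raise transcription of the gluconeogenic enzymes, with the coactivator PGC-1alpha (Ppargc1a) working on both routes. Insulin, through its receptor, the adaptors IRS1 and IRS2 and the kinase AKT, drives FOXO1 out of the nucleus and so lowers transcription of Pck1, G6pc, Igfbp1 and Irs2. Insulin-deficient rodents are known for high hepatic Pck1, G6pc and Igfbp1.

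Promoters of 5 genes on which the results below turn are shown first, since CREB and FOXO1 are known to act at promoters of this set. The sequences are RefSeq windows on GRCm38.p6, written 5′ to 3′ on the strand of the gene, from base -250 to base -1 of the RefSeq start site, or only to the base before the GENCODE gene where that begins further upstream. Capitals mark matches on either strand to the insulin response core CAAAACA (or TGTTTTG) and to the cAMP response core TGACG (or CGTCA).
Pck1, chr2:173152823-173153047, plus strand: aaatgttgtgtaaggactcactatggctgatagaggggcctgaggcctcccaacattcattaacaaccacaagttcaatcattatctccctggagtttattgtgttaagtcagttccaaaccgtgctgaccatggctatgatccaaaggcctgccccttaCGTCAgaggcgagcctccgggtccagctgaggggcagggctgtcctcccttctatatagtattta
G6pc, chr11:101367466-101367560, plus strand: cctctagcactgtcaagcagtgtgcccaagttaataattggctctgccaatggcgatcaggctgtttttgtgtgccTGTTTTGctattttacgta
Ppargc1a, chr5:51567727-51567975, minus strand: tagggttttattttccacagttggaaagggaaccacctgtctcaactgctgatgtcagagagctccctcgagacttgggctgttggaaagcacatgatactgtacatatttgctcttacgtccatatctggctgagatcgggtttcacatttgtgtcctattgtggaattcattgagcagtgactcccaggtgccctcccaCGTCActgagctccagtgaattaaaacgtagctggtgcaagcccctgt
Irs1, chr1:82291440-82291689, minus strand: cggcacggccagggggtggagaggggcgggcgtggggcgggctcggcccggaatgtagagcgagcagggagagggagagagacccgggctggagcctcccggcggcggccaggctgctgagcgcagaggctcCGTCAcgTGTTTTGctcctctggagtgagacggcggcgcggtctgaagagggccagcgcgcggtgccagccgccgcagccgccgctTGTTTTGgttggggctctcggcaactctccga
Igfbp1, chr11:7197537-7197781, plus strand: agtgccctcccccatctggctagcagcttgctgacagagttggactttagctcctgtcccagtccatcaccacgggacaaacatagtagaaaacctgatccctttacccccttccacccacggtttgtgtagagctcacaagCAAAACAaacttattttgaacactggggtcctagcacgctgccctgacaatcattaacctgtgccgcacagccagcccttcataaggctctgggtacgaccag

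Counted from the RefSeq start site, CAAAACA lay at -174 to -168 in G6pc, at -111 to -105 and -32 to -26 in Irs1, at -37 to -31 in Irs2 and at -108 to -102 in Igfbp1. For Irs1 and Irs2 the GENCODE gene begins downstream of that site, at chr1:82291416 and chr8:11008458, and the Irs2 window ends at chr8:11008930. These are 4 of the 9 genes, and 5.56% of all 32851 RefSeq promoter windows searched over the same 250 bases held it. TGACG lay at -90 to -86 in Pck1, at -49 to -45 in Ppargc1a and at -118 to -114 in Irs1, against 17.8% of all windows. The FOXO string GTAAACA, searched on both strands, was in none of the 9 windows and in 3.17% of all. TATAAA was found in G6pc alone of the 9, at -29 to -24, and in 12.4% of all windows. The GENCODE gene of G6pc begins upstream of that site, at chr11:101367561, so the site is not in the printed stretch. These are matches of letters in a short window and say nothing of binding.

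Total counts per mouse were between 34711229 and 53365596. I-BET151 mouse 3 stood apart from the other 11 mice. The TMM factor of its library was 1.61, with 0.77 to 1.11 elsewhere, its 10 most counted genes held 7.95% of its counts against 13.5% to 18.05%, and mitochondrial genes held 2.71% against 4.51% to 7.30%. The summed level of 9 hepatocyte markers was 22132 CPM in this mouse, between 58915 and 93222 CPM in the other 7 STAM mice and between 109994 and 133964 CPM in healthy mice. The summed level of 6 nuclear-retained RNAs was 4943 CPM in it and at most 2189 CPM in healthy and STAM-vehicle mice. By its methods, the study dropped 1 unnamed mouse of the I-BET151 group because few counts fell on genes. All 4 were used here, and values without mouse 3 are given beside the results they touch. Of the marker lists for other cells, macrophage markers were higher for 6 of 9 in both STAM groups than in healthy livers, against 5.72% and 9.88% of all genes. Their summed level was 151 to 227 CPM in healthy, 262 to 490 CPM in STAM-vehicle and 220 to 455 CPM in STAM-I-BET151 mice. Of 7 T and B cell markers, 1 was higher in STAM-vehicle than in healthy livers (5.72% of all genes). In I-BET151 against vehicle 1 of these 7 was lower (0.256% of all genes). At an unadjusted p under 0.05, 4 of the 7 were higher in the first of these comparisons and 4 lower in the second. The shares of all genes were 22.3% and 8.68% in either direction. DESeq2 with all 12 mice gave 2 higher and 3 lower, against 7.36% and 0.972% of its genes. The only tested adipocyte marker was higher in both STAM groups than in healthy livers (5.72% and 9.88% of all genes). None of the 9 tested hepatocyte markers passed in edgeR with all 12 mice. At an unadjusted p under 0.05, 1, 0 and 3 were lower in STAM-vehicle against healthy, I-BET151 against vehicle and I-BET151 against healthy. The shares of all genes were 22.3%, 8.68% and 32.6% in either direction. DESeq2 gave 3 lower in the last comparison (7.09% of its genes). Without I-BET151 mouse 3, edgeR gave 4, 0 and 1 of the 9 lower and none higher, against 10.3%, 1.46% and 9.53% of all genes lower. Of 6 stellate cell markers, 1 was higher in STAM-vehicle than in healthy livers (5.72% of all genes). In I-BET151 against healthy livers 2 were higher and 1 lower (9.88% and 5.25% of all genes). In the same comparison 1 of 5 cholangiocyte markers was higher and 1 of 5 erythroid markers lower. None of 3 tested neutrophil markers passed in edgeR with all 12 mice. At an unadjusted p under 0.05, all 3 were higher in both STAM groups than in healthy livers. The shares of all genes were 22.3% and 32.6% in either direction. DESeq2 with all 12 mice gave 2 of the 3 higher in each STAM group (7.36% and 10.9% of its genes). Without I-BET151 mouse 3, edgeR gave 2 higher in STAM-vehicle and 3 in I-BET151 than in healthy livers (12% and 10.9% of all genes). Of 7 pancreas markers, 4 were at 0 in every group. The part of cell composition in the results was not tested, and in whole liver fewer cells of a type and less RNA per cell cannot be told apart.

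Per kilobase of exon, the order of the 9 levels in healthy liver was led by the enzymes. Pck1 stood at 1724 ± 275 CPM per kb (SD, n = 4), Fbp1 at 621 ± 19.8, G6pc at 251 ± 68.2 and Igfbp1 at 151 ± 72.6. Slc2a2 followed at 60.2 ± 12.2, Foxo1 at 7.85 ± 0.91, Irs2 at 7.76 ± 1.89, Ppargc1a at 3.81 ± 1.12 and Irs1 at 1.46 ± 0.14 CPM per kb. In healthy mice the ranges overlapped between G6pc and Igfbp1, between Igfbp1 and Slc2a2 and between Foxo1 and Irs2, so the order within those pairs is not settled by 4 mice. In STAM-vehicle mice the mean of Igfbp1, 352 ± 108 CPM per kb, stood above that of G6pc, 170 ± 45.4, again with overlapping mice. All levels below are CPM scaled by TMM. Unless another tool is named, each p comes from the quasi-likelihood test of edgeR, adjusted by Benjamini-Hochberg over 16823 genes.

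**Figure D1:**
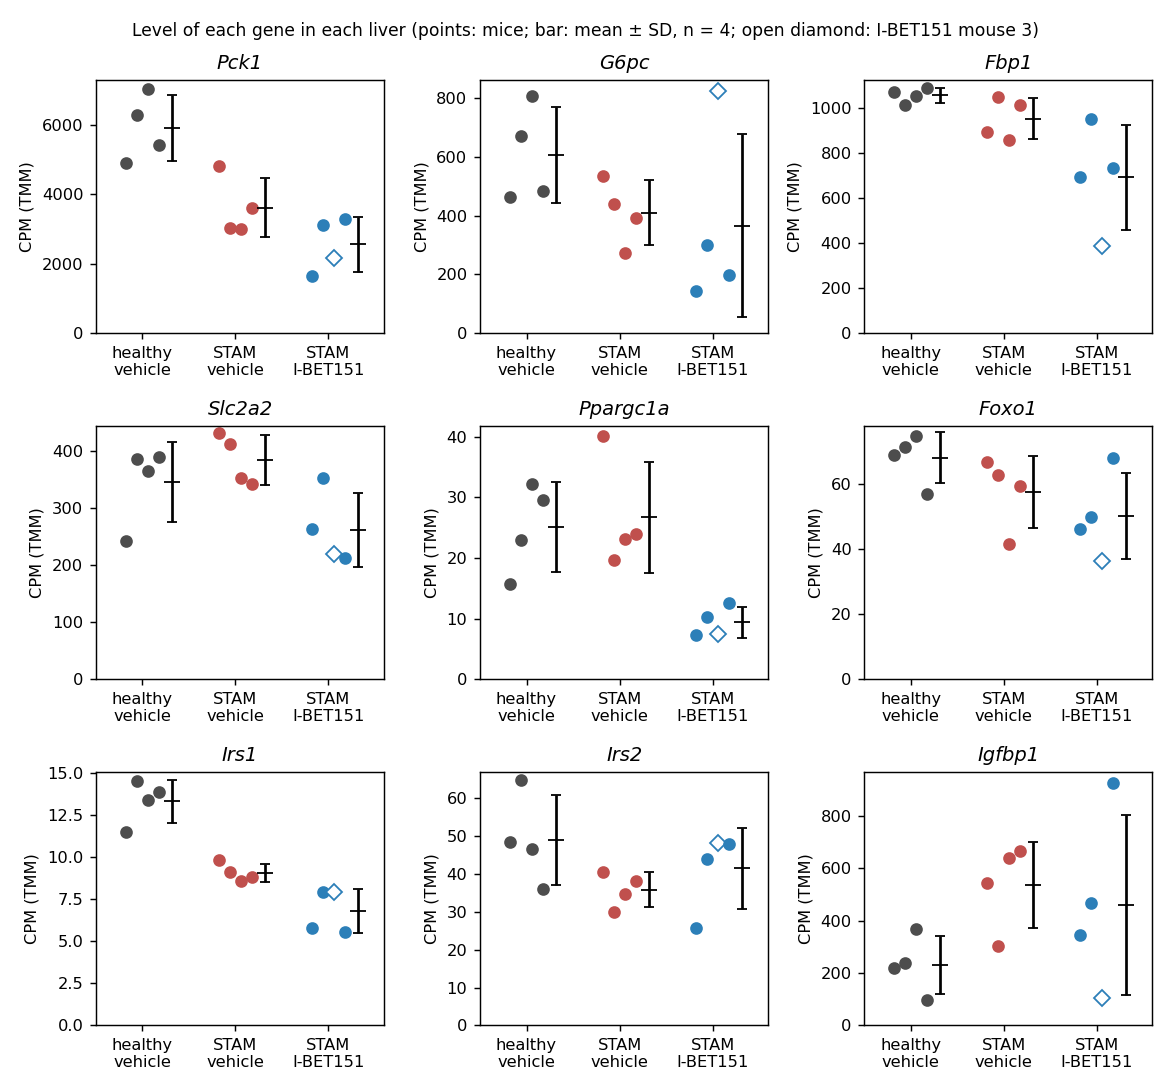
Level of each of the 9 genes (CPM, TMM-scaled, linear axis from 0) in each of the 12 livers, with a point per mouse, the mean and SD of 4 mice beside each group, and I-BET151 mouse 3 as an open diamond. Ppargc1a sits at 7.33 to 12.5 CPM in STAM-I-BET151 mice, under all 8 other mice, whereas for G6pc and Igfbp1 I-BET151 mouse 3 lies away from its group.

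The first comparison asked how the genes differ between diabetic NASH liver and healthy liver. Of the 9 genes, 1 was lower in STAM-vehicle (adjusted p of 0.05 or less) and none was higher. At an unadjusted p under 0.05 the test gave 4 of the 9 (Irs1, Pck1 and Irs2 lower, Igfbp1 higher), and DESeq2 gave 2 lower at the adjusted threshold (2.59% of its genes). The unadjusted share over all genes was 22.3%. Across all genes tested, 1.38% were lower and 5.72% higher, 7.1% in all. The median log2 fold change was -0.24 over the 9 genes and 0.01 over all genes tested. In 2 of the 9, Irs1 and Pck1, every STAM-vehicle mouse was below every healthy mouse, and 12.2% of all genes were so. Without I-BET151 mouse 3, whose spread enters the single fit of all groups, 2 of the 9 were lower and 1 was higher, against 10.3% and 12% of all genes.

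Gene positions are those of GENCODE M21 on GRCm38. Pck1 (ENSMUSG00000027513, chr2:173153048-173159273, plus strand) encodes cytosolic phosphoenolpyruvate carboxykinase, which commits carbon to gluconeogenesis. Its level was 4898, 6281, 7039 and 5429 CPM in the 4 healthy mice, and 4827, 3020, 3002 and 3599 CPM in the STAM-vehicle mice. All 4 STAM-vehicle mice were below the healthy mice, with vehicle mouse 1 only just under the lowest of them. The log2 fold change was -0.71 ± 0.28 (SE), with an adjusted p of 0.154. This call depends on the fit: the adjusted p was 0.0305 with DESeq2, and when I-BET151 mouse 3 was left out edgeR gave 0.043.

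G6pc (ENSMUSG00000078650, chr11:101367561-101377903, plus strand) encodes the catalytic subunit of glucose-6-phosphatase, which releases free glucose from the hepatocyte. It was at 462, 673, 808 and 483 CPM in healthy mice and at 536, 440, 272 and 393 CPM in STAM-vehicle mice. The groups overlapped, and the log2 fold change was -0.56 ± 0.44 with an adjusted p of 0.492. Fbp1 (ENSMUSG00000069805, chr13:62864753-62888282, minus strand), fructose-1,6-bisphosphatase, was between 1013 and 1092 CPM in healthy mice and between 859 and 1049 CPM in STAM-vehicle mice (log2 fold change -0.15 ± 0.23, adjusted p = 0.754). Slc2a2 (ENSMUSG00000027690, chr3:28697903-28731359, plus strand), the GLUT2 transporter through which glucose crosses the hepatocyte membrane, was at 346 ± 70.5 CPM in healthy and 385 ± 44.3 CPM in STAM-vehicle mice (SD, n = 4), with an adjusted p of 0.706. None of these 3 genes passed, and the 95% intervals of their log2 fold changes reached from -1.52 to 0.39 for G6pc, from -0.65 to 0.35 for Fbp1 and from -0.29 to 0.60 for Slc2a2.

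Among the regulators, Ppargc1a (ENSMUSG00000029167, chr5:51454250-51567726, minus strand) stood at 15.7, 23.0, 32.2 and 29.6 CPM in healthy mice and at 40.1, 19.6, 23.1 and 23.96 CPM in STAM-vehicle mice. The groups overlapped, with vehicle mouse 1 the highest and healthy mouse 1 the lowest, and the log2 fold change was 0.09 ± 0.26 with an adjusted p of 0.881. Its sign turned when either of those mice was left out, to -0.085 without healthy mouse 1 and to -0.18 without vehicle mouse 1. Foxo1 (ENSMUSG00000044167, chr3:52268336-52353221, plus strand) was at 68.0 ± 7.84 CPM in healthy and 57.6 ± 11.1 CPM in STAM-vehicle mice (SD, n = 4), with an adjusted p of 0.498.

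Irs1 (ENSMUSG00000055980, chr1:82233101-82291416, minus strand), the adaptor that couples the insulin receptor to phosphatidylinositol 3-kinase, was the gene that fell. It was at 11.5, 14.5, 13.4 and 13.9 CPM in healthy mice and at 9.83, 9.12, 8.61 and 8.81 CPM in STAM-vehicle mice. Every STAM-vehicle mouse was below every healthy mouse and the 4 vehicle values lay close together. The log2 fold change of -0.55 ± 0.14 passed with an adjusted p of 0.0363. The adjusted p was 0.00699 without I-BET151 mouse 3. It passed 0.05 in 5 of the 12 fits that left out a mouse, and without healthy mouse 2, 3 or 4 it was 0.107, 0.0888 and 0.106, and without vehicle mouse 1, 2, 3 or 4 it was 0.0508, 0.0797, 0.111 and 0.0951. It was 0.513 under total count scaling and 0.0626 under upper quartile scaling.

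Irs2 (ENSMUSG00000038894, chr8:10984681-11008458, minus strand), the second hepatic insulin receptor adaptor, was at 48.5, 65.0, 46.7 and 36.0 CPM in healthy mice and 40.7, 29.9, 34.8 and 38.1 CPM in STAM-vehicle mice. The groups overlapped in healthy mouse 4, and the adjusted p was 0.22 at a log2 fold change of -0.45 ± 0.21. Igfbp1 (ENSMUSG00000020429, chr11:7197782-7202546, plus strand), a secreted binding protein of the insulin-like growth factors made by hepatocytes, was at 217, 238, 367 and 96.9 CPM in healthy mice. In STAM-vehicle mice it was at 542, 303, 637 and 665 CPM. Of these, 3 exceeded every healthy mouse and vehicle mouse 2 did not. The log2 fold change was the largest increase of the 9, 1.22 ± 0.53, with an adjusted p of 0.188, and 0.0438 without I-BET151 mouse 3.

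**Figure D2:**
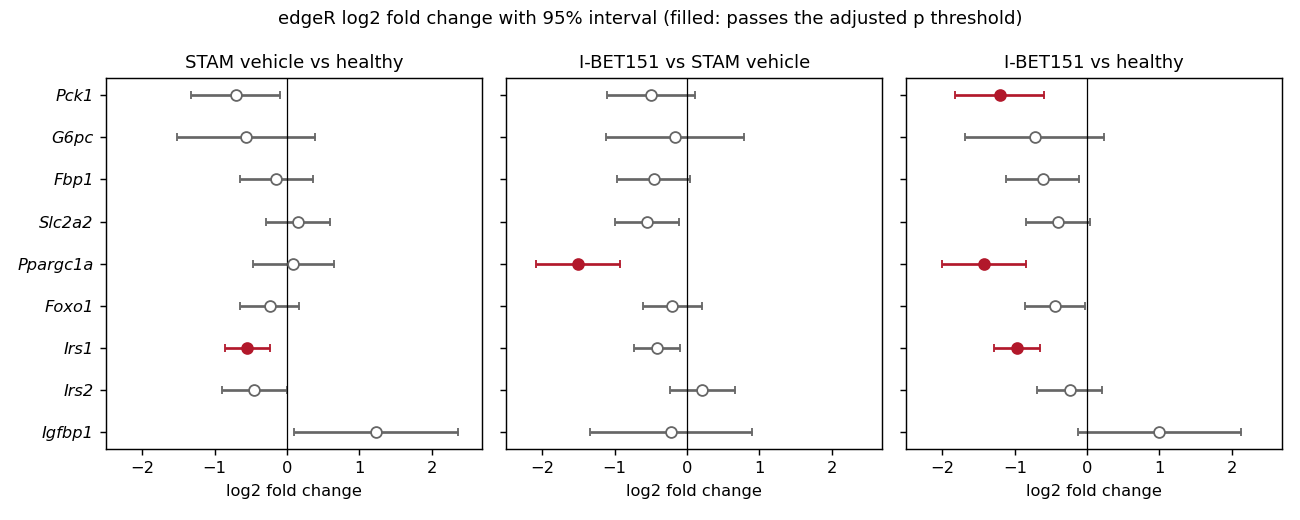
Log2 fold change (x axis) with its 95% interval for the 9 genes in the 3 comparisons, filled red where the adjusted p passed its threshold. Irs1 passed for STAM-vehicle against healthy, Ppargc1a for I-BET151 against vehicle, and Pck1, Ppargc1a and Irs1 for I-BET151 against healthy. The intervals of G6pc and Igfbp1 are the widest.

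The second comparison asked what I-BET151 changed in the diabetic NASH liver. Of the 9 genes, 1 was lower in STAM-I-BET151 than in STAM-vehicle mice at an adjusted p of at most 0.1, the threshold of the study for this comparison, and none was higher. At an unadjusted p under 0.05 the test gave 3 of the 9 (Ppargc1a, Irs1 and Slc2a2, all lower), against 8.68% of all genes, and DESeq2 gave 1 lower at the adjusted threshold (0.972% of its genes). Without I-BET151 mouse 3, edgeR gave 1 lower and none higher as well, against 1.46% and 0.914% of all genes. Across all genes tested, 0.256% were lower and 0.0951% higher, 0.351% in all. The log2 fold change was below 0 for 8 of the 9 genes, with a median of -0.42 against 0.02 over all genes tested. In 2 of the 9, Ppargc1a and Irs1, the I-BET151 mice were all below the STAM-vehicle mice, against 2.63% of all genes.

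Ppargc1a was the gene that fell. It was at 7.33, 10.3, 7.39 and 12.5 CPM in the I-BET151 mice, so the highest of them lay under the lowest STAM-vehicle mouse at 19.6 CPM and under the lowest healthy mouse at 15.7 CPM. Mice 1 and 3 had nearly the same level. The mean was 9.39 ± 2.51 CPM, against 26.7 ± 9.15 CPM in STAM-vehicle mice (SD, n = 4). The log2 fold change was -1.51 ± 0.27 (95% interval -2.09 to -0.93), a 2.85-fold lower level, with an adjusted p of 0.0485. Without I-BET151 mouse 3 the adjusted p was 0.0445, and in DESeq2 it was 8.2e-05. It passed in 10 of the 12 fits that left out a mouse, with 0.132 without vehicle mouse 4 and 0.165 without I-BET151 mouse 1, and it was 0.139 under total count scaling 0.184 with the lane covariate and 0.137 in a fit of these 2 groups alone, with log2 fold changes from -1.25 to -1.68 over the fits that left out a mouse.

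Irs1 was at 5.82, 7.95, 7.92 and 5.58 CPM in I-BET151 mice. All 4 were below the lowest STAM-vehicle mouse at 8.61 CPM, but by a small margin in mice 2 and 3. The log2 fold change was -0.42 ± 0.15 with an adjusted p of 0.401, which did not pass. It was 0.108 in edgeR and 0.0246 in DESeq2 when I-BET151 mouse 3 was left out. Irs2 was at 25.8, 44.1, 48.3 and 48.0 CPM, so that 3 mice were above every STAM-vehicle mouse and mouse 1 was below them all (log2 fold change 0.21 ± 0.21, adjusted p = 0.842). Per kilobase, Irs2 exceeded Irs1 by 6.41, 8.02, 8.82 and 12.4 times in the I-BET151 mice. This ratio was between 4.74 and 6.25 in STAM-vehicle mice and between 3.76 and 6.47 in healthy mice, and it is given as a description.

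Of the enzymes, Pck1 was at 1633, 3121, 2177 and 3283 CPM in I-BET151 mice. Mice 1 and 3 were below every STAM-vehicle mouse and mice 2 and 4 among them, and the log2 fold change of -0.50 ± 0.28 had an adjusted p of 0.669. Fbp1 was at 694, 953, 386 and 735 CPM, with 3 mice below all STAM-vehicle mice (log2 fold change -0.46 ± 0.23, adjusted p = 0.619). G6pc was at 144, 299, 825 and 197 CPM. Mouse 3 had the highest G6pc level of all 12 mice, 3.86 times the mean of the other 3 I-BET151 mice (214 ± 78.9 CPM). With it the log2 fold change was -0.16 ± 0.44, and without it -0.93 with an adjusted p of 0.127 in edgeR and 0.026 in DESeq2. The ratio of G6pc to Pck1 per kilobase was 0.54 in mouse 3 and between 0.085 and 0.21 in the other 11 mice.

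Slc2a2 was at 264, 354, 219 and 213 CPM in I-BET151 mice, with 3 of them below the lowest STAM-vehicle mouse at 342 CPM. Its log2 fold change of -0.55 ± 0.21 had an unadjusted p of 0.018 in edgeR and did not pass (adjusted p = 0.431). Foxo1 was at 46.1, 49.9, 36.3 and 68.0 CPM, reaching below and above the STAM-vehicle mice (adjusted p = 0.833). Igfbp1 was the most spread of the 9 genes, at 344, 466, 104 and 925 CPM. Mouse 4 had the highest and mouse 3 nearly the lowest level of all 12 mice, and the log2 fold change of -0.22 ± 0.52 turned to 0.12 without mouse 3.

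I-BET151 mouse 3 differed from its group most in G6pc, at 3.86 times the mean of the other 3 mice, and in Igfbp1, at a level 5.59-fold below it. For 5 of the 9 genes it lay outside the range of the other 3, against 81.6% of all genes tested. Fbp1 and Foxo1 were lower in it than in any other mouse. Ppargc1a, Irs1, Pck1 and Slc2a2 lay within the range of the other 3, and the Ppargc1a result was nearly as large without it, at a log2 fold change of -1.40.

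**Figure D3:**
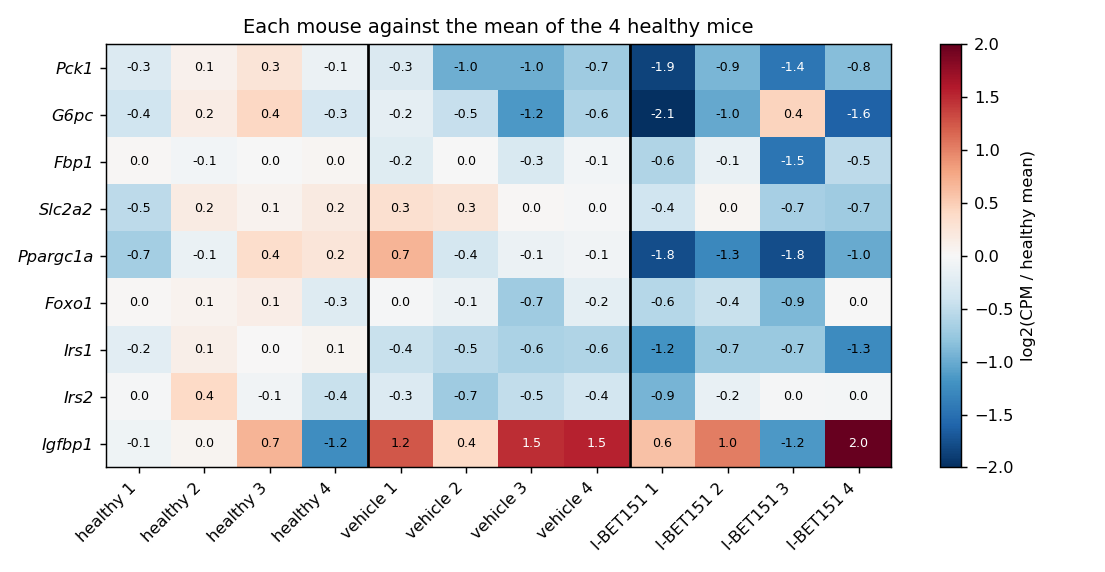
Log2 ratio of each mouse's CPM to the mean of the 4 healthy mice, one row per gene and one column per mouse, with colour from blue (lower) to red (higher) limited to 2 in either direction and the value printed in each cell. The I-BET151 columns are blue for Pck1, Ppargc1a and Irs1 in all 4 mice, whereas mouse 3 is red for G6pc and blue for Igfbp1, opposite to the other 3.

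The third comparison set I-BET151-treated STAM livers against healthy livers, and it shares its mice with both comparisons above. Of the 9 genes, 3 passed at 0.05, all of them lower, against 5.25% lower and 9.88% higher, 15.1% in all, of all genes tested. DESeq2 gave 4 lower (7.09% of its genes), and 5 of the 9 had an unadjusted p under 0.05, as had 32.6% of all genes. The 3 were Irs1 (log2 fold change -0.97 ± 0.15, adjusted p = 0.0013), Pck1 (-1.21 ± 0.29, adjusted p = 0.0142) and Ppargc1a (-1.42 ± 0.27, adjusted p = 0.00468). All 3 passed in each of the 12 fits that left out a mouse. Every I-BET151 mouse was below every healthy mouse in 4 of the 9, these 3 genes and Fbp1, against 8.85% of all genes. The mean levels of Irs1 were 13.3, 9.09 and 6.82 CPM and those of Pck1 5912, 3612 and 2553 CPM in the healthy, vehicle and I-BET151 groups. The mean fell in that order for 5 of the 9 genes (Pck1, G6pc, Fbp1, Foxo1 and Irs1) and for 24.2% of all genes tested.

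The remaining 6 genes did not pass. Fbp1 had a log2 fold change of -0.61 ± 0.23 with an adjusted p of 0.0906, Foxo1 -0.44 ± 0.19 with 0.127 and Slc2a2 -0.40 ± 0.21 with 0.194. Irs2, at -0.24 ± 0.21 with an adjusted p of 0.442, had the smallest difference. G6pc (-0.73 ± 0.44, adjusted p = 0.273) and Igfbp1 (1.00 ± 0.52, adjusted p = 0.203) had the largest errors of the 9. Without mouse 3, G6pc had a log2 fold change of -1.52 (adjusted p = 0.00399), Igfbp1 of 1.32 (adjusted p = 0.0408) and Fbp1 of -0.43 (adjusted p = 0.044), so that 5 genes were lower and 1 higher, against 9.53% and 10.9% of all genes. The lane covariate, fitted with few mice per sequencing lane, ended all 3 calls, with an adjusted p of 0.115 for Irs1, 0.444 for Pck1 and 0.263 for Ppargc1a. Lane 8 held only healthy mice, and lanes 4, 6 and 7 held only STAM mice. Lane and group are thus partly confounded, and in those lanes they cannot be told apart. Total count scaling ended the call of Irs1 (0.103) and a fit of these groups alone that of Pck1 (0.0509).

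**Figure D4:**
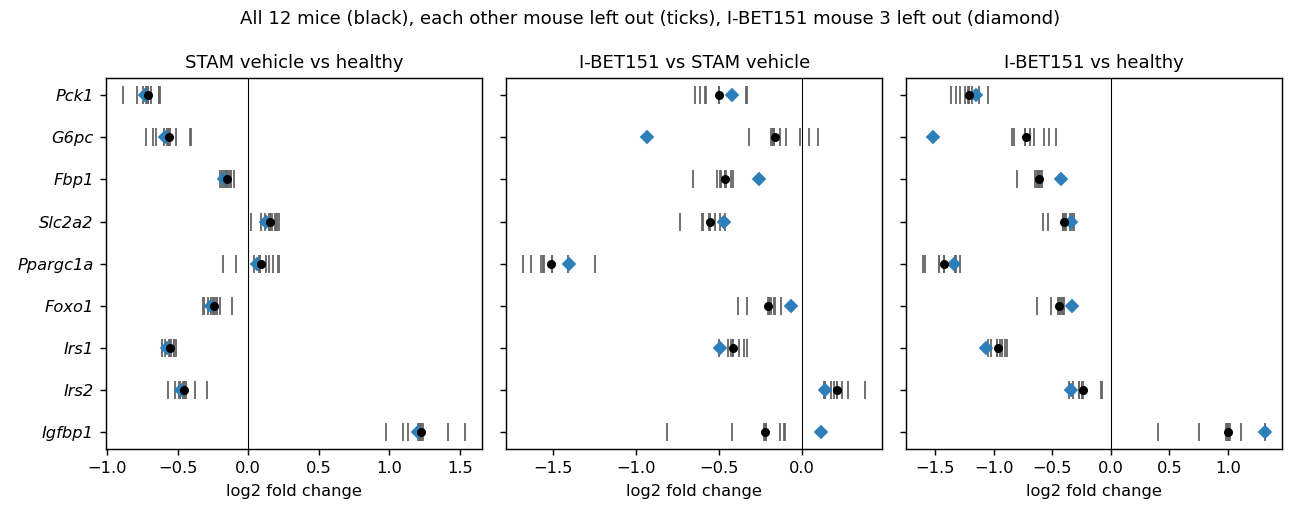
Log2 fold change (x axis) of each gene in the 3 comparisons with all 12 mice (black), with each other mouse left out in turn (ticks) and with I-BET151 mouse 3 left out (blue diamond). For G6pc the value against STAM-vehicle moves from -0.16 to -0.93 without that mouse, whereas Ppargc1a stays between -1.25 and -1.68.

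The wider pathway was covered by 11 lists with 184 genes, of which 181 were tested, the 9 genes included. In STAM-vehicle against healthy livers 7 were higher and 6 lower, in I-BET151 against vehicle 0 and 1, and in I-BET151 against healthy 9 and 20. In the first comparison 3.87% of the 181 were higher and 3.31% lower, against 5.72% and 1.38% of all genes tested. In the second 0.552% were lower, against 0.256%, and in the third 4.97% were higher and 11.05% lower, against 9.88% and 5.25%. With I-BET151 mouse 3 left out, the counts of the first comparison were 21 higher and 29 lower (11.6% and 16.0%, against 12% and 10.3% of all genes). Those of the second were 0 and 7 (3.87% lower, against 1.46%), and those of the third 18 and 35 (9.94% and 19.3%, against 10.9% and 9.53%). The single pathway gene that passed between I-BET151 and vehicle in edgeR with all 12 mice was Ppargc1a.

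Of 28 gluconeogenic enzymes and carriers, 2 were lower in STAM-vehicle than in healthy livers and none higher, against 1.38% and 5.72% of all genes. The fit that left out I-BET151 mouse 3 gave 7 lower and 1 higher (10.3% and 12% of all genes), and DESeq2 with all 12 mice gave 4 lower and 1 higher (2.59% and 7.36% of its genes). Gk, glycerol kinase, which brings glycerol into the pathway, fell from 199 ± 38.7 to 101 ± 18.9 CPM (adjusted p = 0.0155), and Ldha, a lactate dehydrogenase subunit, fell from 1154 ± 157 to 555 ± 115 CPM (adjusted p = 0.0492). Against healthy livers, 4 of the 28 were lower and 1 higher after I-BET151, against 5.25% and 9.88% of all genes, the lower ones being Pck1, Gk, Got1 and Sds. Without mouse 3 there were 9 lower and 1 higher (9.53% and 10.9% of all genes), and in DESeq2 12 lower and 1 higher (7.09% and 10.9% of its genes). Got1, the cytosolic aspartate aminotransferase, was at 506 ± 34.4 CPM in healthy and 200 ± 129 CPM in I-BET151 mice (adjusted p = 0.0295), and Sds, serine dehydratase, at 247 ± 26.8 and 117 ± 54.0 CPM (adjusted p = 0.0291). The higher one was Pck2, the mitochondrial isoenzyme of Pck1, with 4.99 ± 1.02 CPM in healthy and 7.84 ± 1.53 CPM in I-BET151 mice (adjusted p = 0.0446). Pcx, pyruvate carboxylase, was at 1161 ± 69.0, 1120 ± 90.2 and 1032 ± 295 CPM across the 3 groups and passed in no comparison. Slc37a4, the glucose-6-phosphate carrier that works with G6pc, was at 341 ± 39.7, 342 ± 75.2 and 261 ± 72.7 CPM and also passed in none.

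Of 21 glycolytic enzymes and regulators, 5 were higher in STAM-vehicle than in healthy livers and none lower, against 5.72% and 1.38% of all genes. Without I-BET151 mouse 3 the counts were 7 and 0, against 12% and 10.3% of all genes. The 5 included Pfkp (log2 fold change 0.92 ± 0.18, adjusted p = 0.00789) and Pkm (1.05 ± 0.27, adjusted p = 0.0343), isoforms that healthy hepatocytes express little, and Hk2 and Pfkfb3. Macrophage markers were higher in the same livers, and their part in these values was not tested. Pfkp, Pkm and Pfkfb4 also stood higher in I-BET151 than in healthy livers, and Pdk1, a kinase that holds back pyruvate dehydrogenase, was lower (-0.58 ± 0.12, adjusted p = 0.00786). Without mouse 3 there were 5 higher and 4 lower in that comparison (23.8% and 19.0%), against 10.9% and 9.53% of all genes. Against STAM-vehicle none of the 21 passed in edgeR or DESeq2 with all 12 mice. At an unadjusted p under 0.05, 2 were higher and 2 lower, against 8.68% of all genes in either direction. In edgeR without mouse 3, 3 were lower than in STAM-vehicle (14.3%, against 1.46% of all genes). None of the 8 insulin-induced genes passed in any comparison in edgeR with all 12 mice. At an unadjusted p under 0.05, 3 were higher, 2 lower and 1 higher in the 3 comparisons. The shares of all genes were 22.3%, 8.68% and 32.6% in either direction. DESeq2 gave 2 lower in I-BET151 against vehicle, against 0.972% of its genes. EdgeR without I-BET151 mouse 3 gave 2 higher, 2 lower and 1 lower, against 12%, 1.46% and 9.53% of all genes in the same directions.

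Of 24 tested genes of insulin receptor signalling, Irs1 was lower and Pik3r3 higher in STAM-vehicle than in healthy livers, against 1.38% and 5.72% of all genes. There were 4 lower and 2 higher when I-BET151 mouse 3 was left out, against 10.3% and 12% of all genes. After I-BET151, 5 were lower than in healthy livers and none higher (5.25% and 9.88% of all genes). Beside Irs1 these included Insr, the insulin receptor, at 168 ± 29.7 CPM in healthy, 138 ± 14.4 in STAM-vehicle and 113 ± 14.3 in I-BET151 mice (log2 fold change -0.57 ± 0.16, adjusted p = 0.0272 against healthy). Pik3r1, the main regulatory subunit of phosphatidylinositol 3-kinase (-0.59 ± 0.14, adjusted p = 0.0153), and Foxo3, a relative of Foxo1 (-0.77 ± 0.19, adjusted p = 0.0163), were lower as well. Against STAM-vehicle none of the 24 passed in edgeR or DESeq2 with all 12 mice. At an unadjusted p under 0.05, 1 was higher and 2 lower, against 8.68% of all genes in either direction. When I-BET151 mouse 3 was left out, none passed in edgeR and Irs1 alone in DESeq2, with the adjusted p given above.

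Of 18 inhibitors of insulin signalling, Trib3, a pseudokinase that binds AKT, rose in STAM-vehicle from 14.2 ± 1.43 to 25.5 ± 9.44 CPM (adjusted p = 0.0279) and stood at 35.6 ± 3.5 CPM in I-BET151 mice (adjusted p = 0.00177 against healthy). Socs3, which blocks cytokine and insulin receptors, was higher in I-BET151 than in healthy livers (log2 fold change 1.20 ± 0.26, adjusted p = 0.00902) and Phlpp1, an AKT phosphatase, was lower (-0.65 ± 0.13, adjusted p = 0.00602). These were the calls of this list in edgeR with all 12 mice. Against healthy livers, 5.56% of the 18 were higher in STAM-vehicle, and 11.1% higher and 5.56% lower in I-BET151 mice. Of all genes, 5.72% were higher in the first of these comparisons, and 9.88% higher and 5.25% lower in the other. None of the 18 passed against STAM-vehicle in that fit or in DESeq2. At an unadjusted p under 0.05, 3 were higher and 1 lower than in STAM-vehicle, against 8.68% of all genes in either direction. EdgeR without I-BET151 mouse 3 gave 3 higher and 4 lower in STAM-vehicle against healthy, 0 and 1 in I-BET151 against vehicle and 4 and 3 in I-BET151 against healthy livers. These are 16.7% and 22.2%, 0% and 5.56%, and 22.2% and 16.7% of the list. The shares of all genes in that fit were 12% and 10.3%, 0.914% and 1.46%, and 10.9% and 9.53%. Of 18 FOXO1 targets and genes of the fasting response, 6 were lower in I-BET151 than in healthy livers and none higher. This is 33.3% of the list, against 5.25% of all genes tested. The list holds 5 of the 9 genes examined here, and without them 4 of 13 were lower. Leaving out I-BET151 mouse 3 gave 8 lower and 1 higher of the 18, against 9.53% and 10.9% of all genes. The 6 include Pck1, Ppargc1a and Insr, given above. Klf15, a factor induced in fasting, was at 246 ± 13.1, 170 ± 39.4 and 134 ± 24.4 CPM (adjusted p = 0.00823 against healthy), and Mttp, the lipoprotein assembly protein, had a log2 fold change of -0.89 ± 0.23 (adjusted p = 0.0205). Pdk4, another fasting gene, stood at 26.2 ± 13.4, 24.1 ± 13.8 and 45.6 ± 14.8 CPM and did not pass. Between STAM-vehicle and healthy livers none of the 18 passed in edgeR with all 12 mice. At an unadjusted p under 0.05, 1 was higher and 5 lower, against 22.3% of all genes in either direction. In DESeq2, 3 were lower, against 2.59% of its genes. In that comparison, edgeR without I-BET151 mouse 3 gave 1 higher and 5 lower, against 12% and 10.3% of all genes.

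Of 28 transcriptional regulators, Nr0b2, the corepressor SHP, fell in STAM-vehicle from 47.1 ± 9.66 to 20.1 ± 5.43 CPM (adjusted p = 0.0328) and was at 12.8 ± 6.75 CPM in I-BET151 mice (adjusted p = 0.00276 against healthy). The call in STAM-vehicle is 3.57% of the list, against 1.38% of all genes lower. In I-BET151 against healthy livers 4 were lower, with Ppargc1a, Klf15 and Foxa3, and 1 was higher, against 5.25% and 9.88% of all genes. These counts were the same when I-BET151 mouse 3 was left out, against 9.53% and 10.9% of all genes. In that fit 3 of the 28 (10.7%) were lower in STAM-vehicle than in healthy livers, near the 10.3% of all genes. None of 12 genes of glucagon and cAMP signalling passed in any comparison with all 12 mice in edgeR or DESeq2. At an unadjusted p under 0.05, 0, 1 and 3 were lower, against 22.3%, 8.68% and 32.6% of all genes in either direction. Without I-BET151 mouse 3, edgeR gave 4, 0 and 2 lower (33.3%, 0% and 16.7%), against 10.3%, 1.46% and 9.53% of all genes. Gcgr, the glucagon receptor, had 343 ± 24.2, 282 ± 29.0 and 375 ± 180 CPM. None of 10 tested SLC2A transporters passed in edgeR with all 12 mice. At an unadjusted p under 0.05 there were 2, 3 and 4 in either direction, against 22.3%, 8.68% and 32.6% of all genes. DESeq2 gave 1 higher in STAM-vehicle and 1 lower in I-BET151 than in healthy livers (7.36% and 7.09% of its genes). EdgeR without I-BET151 mouse 3 gave 1 higher in each of these comparisons, against 12% and 10.9% of all genes. Of 8 IGF binding proteins, Igfals, which carries the circulating IGF complex, was lower in STAM-vehicle than in healthy livers (log2 fold change -0.90 ± 0.25, adjusted p = 0.0427). This is 12.5% of the list, against 1.38% of all genes lower. Without I-BET151 mouse 3 there were 1 lower and 2 higher in that comparison, against 10.3% and 12% of all genes. Of 17 genes of glycogen metabolism, Ppp1r3c, which brings a phosphatase to glycogen, was at 46.5 ± 9.69, 22.8 ± 8.51 and 20.98 ± 3.91 CPM and lower than healthy in both STAM groups (adjusted p = 0.0183 and 0.00705). The call in STAM-vehicle is 5.88% of the list, against 1.38% of all genes lower. Gys2, the liver glycogen synthase, was lower after I-BET151 than in healthy livers (-0.82 ± 0.18, adjusted p = 0.00873), whereas Gyg, the glycogenin that primes glycogen (0.81 ± 0.21, adjusted p = 0.0202), and Pygb, the brain isoform of glycogen phosphorylase (0.64 ± 0.18, adjusted p = 0.0297), were higher. The counts of the 17 in that comparison were 3 lower and 2 higher, against 5.25% and 9.88% of all genes. When I-BET151 mouse 3 was left out, edgeR gave 4 higher and 3 lower of the 17 in STAM-vehicle and 4 and 4 in I-BET151 than in healthy livers. The shares of all genes in that fit were 12% and 10.3%, and 10.9% and 9.53%.

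**Figure D5:**
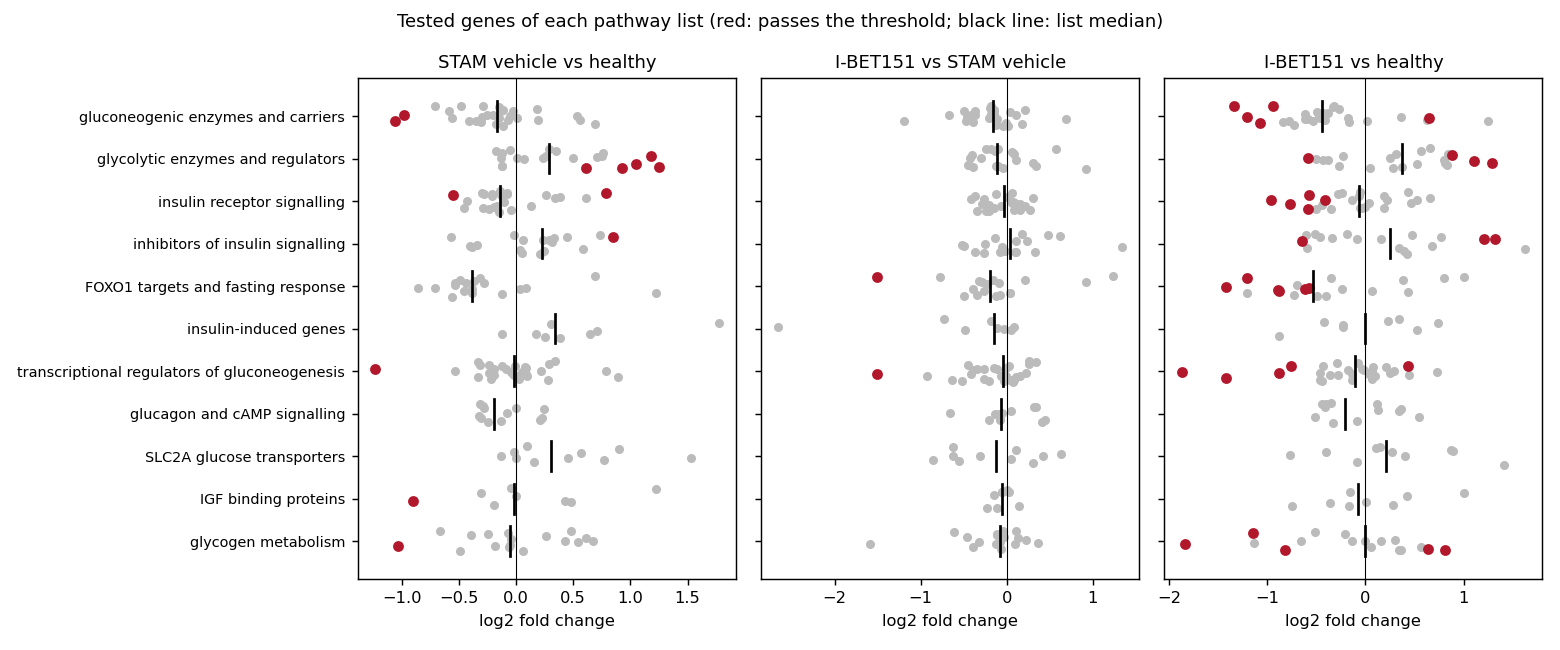
Log2 fold changes (x axis) of the tested genes of the 11 pathway lists in the 3 comparisons, a point per gene, red where the adjusted p passed its threshold, with the list median as a black line. Glycolytic genes hold the 5 red points above 0 in one list for STAM-vehicle against healthy, and Ppargc1a, in 2 lists, is the red point for I-BET151 against vehicle.

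For each gene, the genes with the most similar levels over the 12 mice were found by the mean absolute difference of z-scored log2 CPM among 16822 other genes, with smaller values for closer patterns. The closest were Ndufc2, a subunit of respiratory complex I, to Fbp1 (0.12), P2ry4, a nucleotide receptor, to Irs1 (0.16), Klf15 to Pck1 (0.23) and Cd1d1 to G6pc (0.25). P2ry4 was at 4.61 ± 0.66, 2.72 ± 0.21 and 1.60 ± 0.54 CPM in the 3 groups, falling in the order of Irs1. Foxo1 lay closest to the pseudogene Gm13131 (0.26), Igfbp1 to Atp6v0e (0.27), Slc2a2 to Tnks (0.30) and Ppargc1a to Ugt1a9 (0.32). Ugt1a9 was at 70.9 ± 14.9, 79.9 ± 21.2 and 24.8 ± 10.8 CPM, but it shares exons with the other genes of its locus, so its counts are uncertain. Irs2 had no close match, its nearest gene being the pseudogene Gm6161 at 0.44. I-BET151 mouse 3 enters every one of these values, which are descriptions.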

How the data were processed

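Liver RNA of 12 mice was sequenced (4 healthy, 4 STAM-vehicle, 4 STAM-I-BET151, grouped by the sample titles) from stranded mRNA libraries. The authors aligned the reads to mm10 with STAR 2.5.1b, and the values they deposited are raw counts, 1 whole number per gene and mouse. The methods and processing notes name HTSeq for counting and the deposited files are labelled featureCounts. The annotation release is not given in the sources used here. Identifiers were matched to GENCODE M21 symbols (47310 of 47729).

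All 12 mice entered a single edgeR 4.0.16 fit (R 4.3.3, limma 3.58.1) with TMM scaling, the filterByExpr filter at a minimum count of 10, and the quasi-likelihood test with Benjamini-Hochberg adjustment over 16823 genes. An adjusted p of at most 0.05 was called, and 0.1 for I-BET151 against vehicle, both thresholds of the study. DESeq2 1.42.0, the tool of the study, was an alternative. CPM are counts scaled to the TMM-adjusted library size, log2 CPM used a prior count of 2, and CPM per kb divide by the GENCODE exon length. The SE is the log2 fold change divided by the square root of F. Promoters are RefSeq windows on GRCm38.p6, matched by symbol for 9 of 9 genes. Tables and figures used Python 3.11.15, pandas 2.3.3, NumPy 2.4.6 and Matplotlib 3.10.9. The scripts were tested on simulated data.

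The 9 genes, the 11 pathway lists and the 11 marker lists were chosen with earlier results of these data known. Named in the text are all 9 genes, at most the 4 genes of a pathway list with the smallest adjusted p among those that passed in a comparison, the genes Insr, Pdk4, Gcgr, Pcx, Pck2 and Slc37a4 whatever their values, and the closest genes by pattern. An item that the rule also names is not reported here. Counts differed beyond sampling noise between all mice of the same group. Genes that overlap the 9 had at most 33 counts in any mouse. Alternatives were other scalings, filters, thresholds and fits, a replicate block, a lane covariate and each mouse left out. DESeq2 without I-BET151 mouse 3 and limma-voom with sample weights were chosen after seeing the data.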

Additional observations from a re-analysis of the deposited data

Results flagged for a closer look

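Among the 27 combinations of gene and group, 1 mouse lay apart from the others of its group by Dixon's test at the 95% level. Slc2a2 was at 242 CPM in healthy mouse 1 and between 365 and 391 CPM in the other 3 healthy mice, a gap of 0.83 of the group's range, just over the critical value for 4 mice. Chance flags about 1 in 20 such groups. The value bears on the comparison of STAM-vehicle with healthy livers, in which Slc2a2 passed neither with all 12 mice nor in any fit that left out a mouse. G6pc and Igfbp1 in I-BET151 mouse 3 did not pass this test.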

How the results depend on the processing

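Over the 9 genes, 3 comparisons and 24 alternatives each, 582 of 648 values kept their direction and their side of the threshold, 24 lost the call, 28 gained one and 14 changed sign. The cause of these changes was not tested. Signs that changed were, for STAM-vehicle against healthy, Fbp1 (0.12 under total count scaling, 0.18 with the lane covariate), Foxo1 (0.030 under total count scaling) and Ppargc1a (-0.085 without healthy mouse 1, -0.18 without vehicle mouse 1, -0.12 in limma-voom). For I-BET151 against vehicle they were G6pc (0.19 under total count scaling, 0.099 without I-BET151 mouse 1, 0.041 without mouse 4) and Igfbp1 (0.12 without mouse 3 in edgeR, 0.12 in DESeq2, 0.15 in limma-voom), and for I-BET151 against healthy Irs2 (0.17 under total count scaling, 0.047 with the lane covariate). Total count scaling moved the median of all genes to 0.28, 0.13 and 0.46 in the 3 comparisons, and upper quartile scaling to 0.15 in the last. In the order STAM-vehicle against healthy, I-BET151 against vehicle and I-BET151 against healthy, the 9 genes gave 1, 1 and 3 calls, the pathway lists 13, 1 and 29 and all genes 1195, 59 and 2546. DESeq2 gave 2 of the 9 genes in the first comparison, 23, 4 and 49 pathway genes, and 1892 and 268 genes in the first and second comparisons. DESeq2 without I-BET151 mouse 3 gave 3, 3 and 6 of the 9 genes, 61, 17 and 67 pathway genes and 4378, 1288 and 4105 genes. Limma-voom with sample weights, in which that mouse had a weight of 0.075, gave 3, 5 and 7, then 69, 23 and 86, then 5672, 1205 and 4880. Fits of the 2 groups compared gave 3 and 0 of the 9 genes in the first and second comparisons, 54, 0 and 17 pathway genes and 3879, 8 and 1262 genes. The lane covariate gave 0, 0 and 0 of the 9 genes, 0, 0 and 1 pathway genes and 37, 0 and 85 genes. Lanes partly follow the groups, as given above. For the second comparison, total count scaling gave 0 of the 9 genes, 0 pathway genes and 6 genes, and no filter gave 2 pathway genes and 101 genes. For the first comparison, total count scaling, upper quartile scaling, no filter and a minimum of 10 counts in every mouse each gave 0 of the 9 genes. An adjusted p of 0.1 gave 24 pathway genes and 2052 genes in the first and 68 and 4162 in the third comparison, and 0.05 gave 26 genes in the second. Leaving out each mouse in turn gave 0 to 3, 0 to 1 and 3 to 6 of the 9 genes, 2 to 50, 0 to 7 and 13 to 53 pathway genes, and 546 to 3779, 13 to 403 and 1292 to 3731 genes. Over these fits the log2 fold change of Ppargc1a lay between -0.18 and 0.22 in the first comparison, and in the second that of G6pc between -0.93 and 0.099 and that of Igfbp1 between -0.81 and 0.12.

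The replicate numbers were not treated as pairs in the main fit. Same-numbered mice deviated together no more than others did (mean r of -0.093 over 12 pairs against 0.031 over 36). With 4 mice per group this cannot exclude a pairing. With the replicate number as a block, 0, 0 and 3 of the 9 genes passed, 4 pathway genes in the first and 0 in the second comparison, and 742, 10 and 1573 genes, with an adjusted p of 0.0793 for Irs1 in the first and 0.173 for Ppargc1a in the second.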
